A study of Mus musculus with 54 samples.

Results

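The genes of the cytosolic ribosome were followed through 3 tissues of aged mice and through the brain of a dementia model, each with and without the inhibitor Cmpd60. Members were chosen by symbol, as the genes named Rpl or Rps with a number together with Rplp0, Rplp1, Rplp2 and Rpsa, without Rpl29, the pseudogenes and the S6 kinases. This gave 86 of the 54232 genes counted. Of these, 75 encode proteins of the ribosome itself and are called core members here, 44 in the large and 31 in the small subunit. Another 9 are variants, which are paralogs or retrogenes of a core member (Rpl3l, Rpl7l1, Rpl10l, Rpl22l1, Rpl36al, Rpl37rt, Rpl39l, Rps27l and Rps27rt). The remaining 2, Rps19bp1 and Rps23rg1, carry a matching symbol but do not encode a ribosomal protein.

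A ribosome holds a single copy of nearly every core protein, so cells make these proteins in matched amounts and their mRNAs tend to move together. Most of these mRNAs start with a run of pyrimidines, the terminal oligopyrimidine or TOP motif, through which mTORC1 and the RNA-binding protein LARP1 switch their translation on and off with nutrients and growth factors. Ribosomal protein mRNA is among the most abundant mRNA of any cell, and its amount in a tissue follows growth and the mix of cell types. Cmpd60 is a benzamide that inhibits the histone deacetylases HDAC1 and HDAC2, which remove acetyl groups from histones and are generally linked to the silencing of genes.

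All mice were male BL6. Naturally aged mice of about 20 months received Cmpd60 at 22.5 mg/kg or the vehicle by intraperitoneal injection on each of 14 days, and RNA was sequenced from kidney (6 Cmpd60, 5 vehicle), brain (6 and 6) and heart (5 and 6). The same dosing was used in APPSWE-1349 mice, which overexpress a human Alzheimer-related amyloid precursor transgene, and in their littermates without it, all aged 6 to 7 months. From these mice, brain was sequenced in 4 Cmpd60 and 5 vehicle APPSWE libraries and in 5 Cmpd60 and 5 vehicle littermate libraries. The labels do not say which tissues came from the same mouse, but the study's methods describe fewer aged mice than there are aged libraries, so tissues share animals. All tissues were bulk, so fewer cells of a type and less RNA per cell cannot be told apart.

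The labels conflict for the kidney and for 1 library of the dementia cohort. In the kidney, the treatment field gives the opposite of the sample titles and source names, which were followed here and which name the same libraries as treated as the study's own kidney table does. With the treatment field instead, every kidney difference would have the opposite sign. In the dementia cohort, library s139 is vehicle by its label and Cmpd60 by the study's table, so it was left out and added to either group only as an alternative. Gene counts ran from 23584609 to 57430113 per library with a median of 28114298, and the members took from 0.677% to 2.54% of them. Tissue markers went with the labels: summed proximal tubule markers were at least 3461 CPM (gene counts scaled to a common library size) in every kidney library and at most 11.3 CPM elsewhere, cardiomyocyte markers were at least 43517 CPM in heart, and neuron markers were at least 5237 CPM in brain. Libraries are named by the number in their label.

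Not every member could be measured equally well. Reads that fit several places in the genome were not counted, and many ribosomal protein genes have processed pseudogenes. In vehicle tissue, 74 core members reached 10 CPM in some tissue, with tissue means between 15.6 and 667 CPM, whereas Rpl13a stayed under 10 CPM in all 3 tissues, at 1.90 CPM in kidney, 2.80 CPM in brain and 0.900 CPM in heart. Rpl36al was at 0.16 CPM in kidney and brain, beside 44.3 and 33.1 CPM for its parent Rpl36a. The Rps27rt and Rpl37rt retrogenes share sequence with Rps27 and Rpl37. Values for these genes are therefore uncertain. Rpl10l had no count in any library, and Rpl39l had none in the kidney. In the tests, 84 of 86 members passed the filter on low counts in each aged tissue and 83 passed it in the dementia cohort. Rpl10l failed in each fit, joined by Rpl39l in the kidney, by Rps23rg1 in brain and heart, and by both in the cohort.

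Runs of pyrimidines, the letters of the TOP motif, lie near the annotated start sites of many of these genes. In the RefSeq promoter table (assembly GRCm38.p6), which held 67 of the 86 members, an unbroken run of at least 7 C or T bases that opens with C lay between 20 bases before and 50 bases after the annotated start in 50 members (74.6%), against 7958 of 27025 promoters in all (29.4%). The letters CGGAAG, the core of sites bound by ETS-family factors, were found on either strand within the 300 bases of 43 members (64.2%) and of 17.2% of all promoters. Below are the tracts of members that the results turn on, the first 7 because they were among the 10 members at p below 0.01 with Cmpd60 in the dementia model and the last 2 because they belong to tissue-biased variants. The tract is in capitals, with 5 bases on each side, 5′ to 3′ on the strand of the gene.
Rps6, chr4:86857354-86857373, minus strand: tcgggCCTCTTTTTCgtgac
Rps7, chr12:28635914-28635936, minus strand: ccccaCCTCTTTTCTTCCgccac
Rps9, chr7:3704031-3704048, plus strand: cttgtCTCTCTTTgtctc
Rps15, chr10:80292451-80292471, plus strand: ccgtaCTTCCTTTTCCgagta
Rps25, chr9:44407690-44407710, plus strand: ggcttCCTTTTTTTCCgacat
Rpl9, chr5:65391388-65391405, minus strand: acgttCTCTCTTTgcccc
Rpl11, chr4:136053359-136053384, minus strand: gaagtCTCCCTCTCTCTTCCTgttct
Rpl22l1, chr3:28805506-28805523, plus strand: ccgttCTCTTCCCacggc
Rpl3l, chr17:24727852-24727870, plus strand: ggaggCCCCTTCCTaacct
A tract in this window is a description of the letters and need not be a TOP motif, since the transcripts' true first bases were not measured here. Some of the printed tracts open well away from the annotated start, such as Rps25 at -19 and Rpl9 at 32. The Rps25 tract was cut by the edge of the window, and its run of C and T bases begins in the printed flank before it. Of the 56 core members in the promoter table, 15 had their longest tract opening at offsets from -5 to 15.

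Among vehicle-treated aged mice, the summed mRNA of the 75 core members was lowest in brain. On a scale shared by the 3 aged tissues, the sum in vehicle mice was 13171 ± 1297 CPM (SD, n = 5) in kidney, 13946 ± 1199 (n = 6) in heart and 8067 ± 701 (n = 6) in brain. As a share of all gene counts, core members took 1.39% ± 0.108 in kidney, 1.11% ± 0.117 in heart and 0.969% ± 0.0774 in brain. On the shared CPM scale kidney and heart overlapped, and every brain library lay below both. By share of gene counts every brain library lay below kidney, but brain (0.855% to 1.09%) and heart (0.985% to 1.27%) overlapped.

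**Figure D1:**
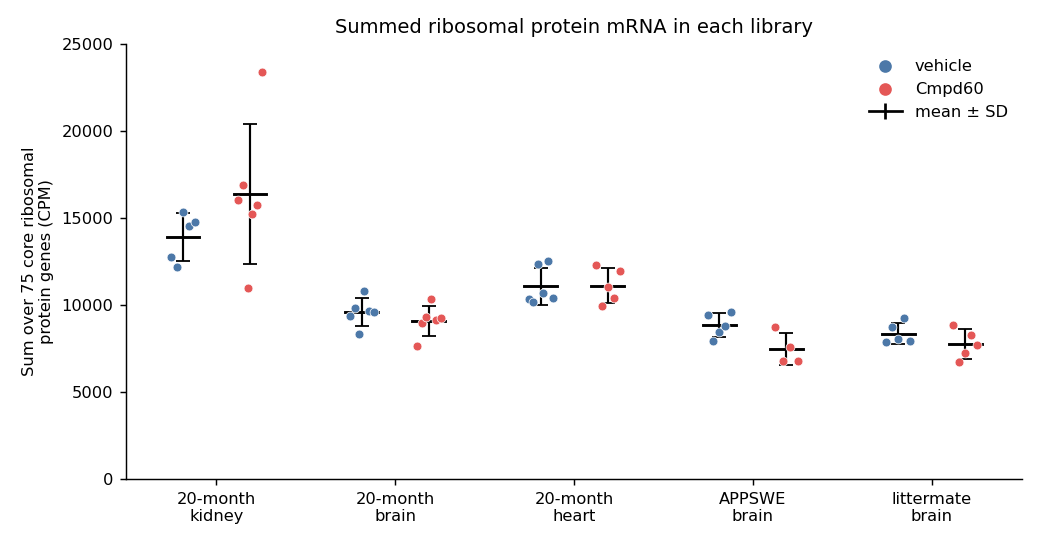
Each point is a library and gives the sum of the 75 core ribosomal protein genes in CPM (normalized within each tissue or within the cohort) for vehicle and Cmpd60 in each tissue; black lines are the mean with the SD. Kidney Cmpd60 libraries spread from 11015 to 23396 CPM around the vehicle libraries (12178 to 15376.5), and 3 of the 4 APPSWE Cmpd60 libraries lie below every APPSWE vehicle library.

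In the 20-month kidney, most ribosomal protein mRNAs were higher with Cmpd60, by a median of 0.24 on the log2 scale, but the treated libraries differed widely among themselves. The core sum in Cmpd60 mice was 16019 CPM in replicate 50, 16910 in 51, 11015 in 52, 15248 in 53, 15744 in 54 and 23396 in 55. In vehicle mice it was 12780 CPM in replicate 45, 12178 in 46, 15376.5 in 47, 14528 in 48 and 14770 in 49. Thus 4 of 6 treated libraries lay above all vehicle libraries, 1 lay below them, and the highest and the lowest library of the tissue were both treated. The means were 16389 ± 4002 CPM (SD, n = 6) and 13926 ± 1374 (n = 5), a ratio of 1.18 that became 1.08 without replicate 55 and 1.25 without replicate 52.

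Member by member, 76 of 84 were higher with Cmpd60 and 8 were lower, whereas the median of all 20698 genes tested was near 0 and 50% of them were higher. Large and small subunit genes gave the same median of 0.25. At an unadjusted p below 0.05, 14 members were higher, against 5.71% of all genes, and 1 was lower (Rps23rg1), against 5.63%. None passed an adjusted p of 0.05 in edgeR (0.188% of all genes higher, 0.111% lower), DESeq2 or limma-voom. Limma-voom gave 8 higher members at p below 0.05. The smallest adjusted p was 0.277, that of Rpl5. At p below 0.01 edgeR gave none, against 1.81% of all genes higher and 1.97% lower, and DESeq2 gave 2. Leaving out replicate 52 brought the number of higher members at p below 0.05 to 45 and the median to 0.34, and leaving out replicate 55 brought them to 6 and 0.07. Without vehicle replicate 45 or 46 the number was 3, and without Cmpd60 replicate 51 or vehicle replicate 47 it was 4. Leaving out Cmpd60 replicate 50 gave 9. At p below 0.01 there were 12 without replicate 52, and at most 1 without any other library. Here and below, the shares of all genes are those of the main fits. Counts of members under other methods or without a library were not compared with the share of all genes in the same fit.

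In 1 of the 84 members the kidney groups did not overlap, a share near the 1.1% of all genes that were apart upward. This was Rplp0, the base of the stalk that draws elongation factors to the ribosome. Rplp0 was at 706, 776, 651, 650, 728 and 879 CPM in the treated libraries 50 to 55 and at 603, 604, 599, 639 and 602 CPM in the vehicle libraries 45 to 49. Every treated library was above every vehicle library, by a log2 fold change of 0.26 ± 0.096 (SE, adjusted p = 0.311, edgeR). Rpl5, which with Rpl11 carries a ribosomal RNA into the large subunit and can bind MDM2, was at 512 ± 84.7 CPM against 405 ± 35.3, with 4 of 6 treated libraries above all vehicle libraries (log2 fold change 0.34 ± 0.12, adjusted p = 0.277). Rps6, the substrate of S6 kinase, was at 384 ± 77.9 against 310 ± 18.4 CPM (0.31 ± 0.13, adjusted p = 0.382). Rpsa, a small subunit protein also described as a laminin receptor, was at 476 ± 80.2 against 395 ± 23.4 CPM (0.27 ± 0.11, adjusted p = 0.395). None of these 4 differences passed the adjusted threshold.

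In several kidney libraries most members deviated the same way. Taking each member against its own mean over the 11 kidney libraries, 81 of 84 members were above it in replicate 55 and 3 were in replicate 52, both treated. In the vehicle group the same count was 4 in replicate 45, 2 in 46, 59 in 47, 38 in 48 and 35 in 49. Other properties of these libraries moved along. The summed markers of the proximal tubule, the main transporting segment of the nephron, were lowest in replicate 55 at 3461 CPM and highest in replicate 52 at 9224 CPM, with the other 9 libraries from 6066 to 8694 CPM. Distal nephron markers were also lowest in replicate 55 at 4557 CPM (6861 to 9010 CPM in the others), and so were genes with a count, at 18512 against 19385 to 23062. Of 5 proximal tubule markers, 4 were lower and 1 was higher with Cmpd60, none at p below 0.01. Their part in the kidney result was not tested.

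**Figure D2:**
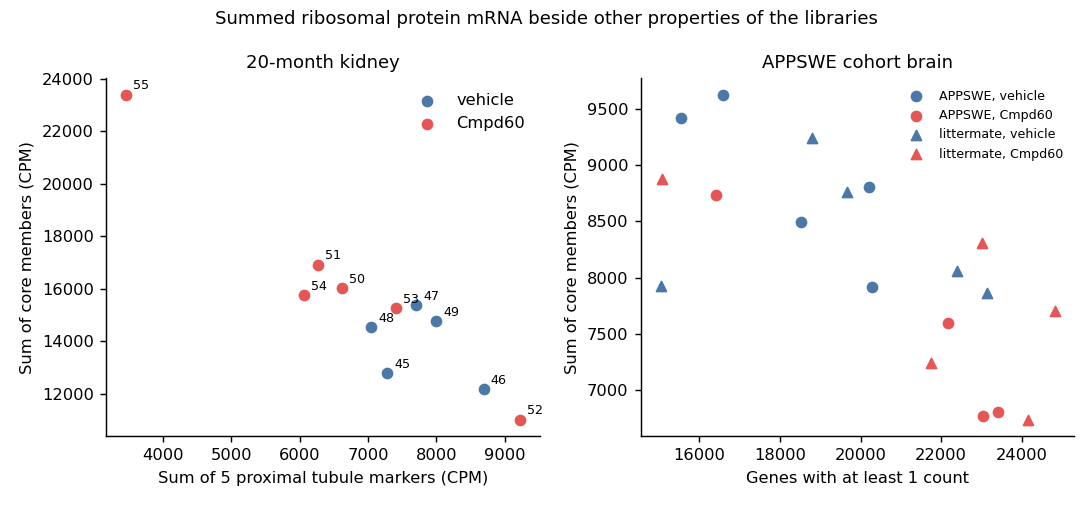
Left, the core member sum (CPM) of each 20-month kidney library against the sum of 5 proximal tubule markers (CPM), with library numbers; replicate 55 has the highest core sum and the lowest marker sum, and replicate 52 the reverse. Right, the core member sum of each of the 19 cohort brain libraries against its count of detected genes; the 5 libraries with the fewest genes run from 15044 to 16577 genes.

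In the 20-month brain the direction was the opposite and the size smaller. Cmpd60-treated brains had lower levels of 72 of 84 members and higher levels of 12, a median of -0.09 on the log2 scale beside 0.01 for all genes, of which 48.2% were lower. The core sum was 7675, 8953, 9313, 10338, 9150 and 9240 CPM in Cmpd60 replicates 33 to 38, and 9379, 9830, 8330, 10844.5, 9643 and 9595 CPM in vehicle replicates 27 to 32. The groups overlapped, with means of 9111 ± 854 and 9603 ± 808 CPM (SD, n = 6 each), a ratio of 0.949. At p below 0.05, 13 members were lower, against 6.47% of all genes, and 1 was higher, against 7.32%. At p below 0.01, 2 were lower, against 2.03%, and none higher, against 2.26%. None passed the adjusted threshold in edgeR (0.0123% of all genes higher, 0.00818% lower), DESeq2 (14 lower at p below 0.05) or limma-voom (15). In no member were the groups apart, as they were in 0.495% of all genes upward and 0.43% downward. Without replicate 36 of the treated group the number at p below 0.01 was 13, without vehicle replicate 29 it was 8, and without treated replicate 33 or 38 it was 0. It was 1 without treated replicate 34 or 35 or vehicle replicate 27 or 30. Leaving out treated replicate 33 or vehicle replicate 30 brought the median to -0.04.

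Markers of brain cell types were read in the same aged groups, and none passed the adjusted threshold. Summed neuron markers were at 5563 to 6978 CPM with Cmpd60 (median 6070) and 5237 to 5993 CPM with vehicle (median 5642), with 4 of 6 markers higher, 2 lower and 2 at p below 0.01. Cerebellar granule cell markers were at 216 to 507 CPM (median 339) against 409 to 683 CPM (median 471), with all 4 lower and 1 at p below 0.01. Choroid plexus markers, from the tissue that makes cerebrospinal fluid, were at 221 to 905 CPM (median 498) against 535 to 749 CPM (median 692), with 4 of 5 lower and none at p below 0.01. The groups overlapped in all 3 sums. Median log2 fold changes were 0.14 for neuron, -0.48 for granule cell and -0.02 for choroid plexus markers. Of 5 endothelial markers, 4 were higher and 1 was at p below 0.01 (median 0.17). Astrocyte markers split 2 and 2, and 3 of 4 microglia and 3 of 4 oligodendrocyte markers were lower, none at p below 0.01. Of all genes, 2.26% were higher and 2.03% lower at p below 0.01. The part of these markers in the family's difference was not tested.

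The 2 members past p below 0.01 in the aged brain, a share near that of all genes, were the retrogenes Rpl37rt and Rps27rt, which passed it in 15 and 7 of 19 alternatives. Rpl37rt was at 5.60, 7.90, 6.62, 7.95, 6.40 and 6.07 CPM in Cmpd60 replicates 33 to 38 and at 9.66, 8.01, 7.36, 10.4, 7.87 and 8.55 CPM in vehicle replicates 27 to 32, so that 4 treated libraries were below every vehicle library (log2 fold change -0.36 ± 0.11, adjusted p = 0.179, edgeR). Rps27rt was at 20.2 ± 6.32 against 31.97 ± 12.3 CPM (-0.67 ± 0.23, adjusted p = 0.224), and the groups overlapped. Their parents Rpl37 and Rps27 differed by -0.11 ± 0.084 and 0.10 ± 0.26. In vehicle replicate 29, Rps27rt was at its highest (49.1 CPM) and Rps27 at its lowest (8.68 CPM) of the 12 libraries. The P-stalk gene Rplp1 was at 247 ± 29.4 CPM with Cmpd60 and 287 ± 28.02 CPM with vehicle, 5 of 6 treated libraries below all vehicle libraries (-0.22 ± 0.076, adjusted p = 0.235). Rpl22l1, the paralog of Rpl22, was at 38.8 ± 3.82 against 44.1 ± 3.95 CPM, again with 5 of 6 below all vehicle libraries (-0.19 ± 0.071, adjusted p = 0.274). Core members at or under the median transcript length of 751 bases had a median of -0.13 (38 genes), and longer ones had -0.03 (37 genes).

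In the 20-month heart no common direction was seen. The core sum was 11122 ± 1003 CPM (SD, n = 5) with Cmpd60 and 11095 ± 1068 (n = 6) with vehicle, a difference well inside the spread of either group. Of 84 members, 54 were higher and 30 lower, against 49.6% and 50.4% of all genes, with a median of 0.03 beside 0.00, and the median turned to -0.04 without treated replicate 68 and to -0.01 without treated replicate 72. Only 1 member was higher at p below 0.05 (Rpl7l1), against 7.28% of all genes, and 2 were lower, Rpl3l among them, against 6.22%. None passed p below 0.01 (3.09% of all genes higher, 2.25% lower) or the adjusted threshold (0.756% higher, 0.422% lower) in edgeR, DESeq2 or limma-voom, and no member had groups that did not overlap (1.45% of all genes upward). Without treated replicate 68 there were 2 lower at p below 0.01.

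Rpl3l stood out in the heart for its level. Rpl3 encodes a large subunit protein close to the centre where peptide bonds form, and Rpl3l is its paralog in striated muscle. In vehicle mice, on the scale shared by the tissues, Rpl3l was at 253 ± 25.5 CPM in heart, 1.96 ± 0.434 in kidney and 0.296 ± 0.0634 in brain. Rpl3 ran the other way, at 207 ± 22.7 CPM in heart, 379 ± 29.8 in kidney and 355 ± 29.8 in brain. Heart was above kidney by a log2 fold change of 7.01 for Rpl3l (adjusted p = 1.85e-25) and below it by 0.87 for Rpl3 (log2 fold change -0.87, adjusted p = 7.73e-11, edgeR). Rpl3 did not differ between brain and kidney beyond its spread (-0.09, adjusted p = 0.34). Per length of transcript, Rpl3l made up 54.8% ± 4.43 of the pair in vehicle hearts, with libraries from 50.1% to 61.3%, and at most 1.03% in any kidney and 0.12% in any aged brain.

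With Cmpd60, Rpl3l was at 201, 161, 183, 161 and 174 CPM in heart replicates 68 to 72, and at 186, 220, 191, 193, 193 and 223 CPM in vehicle replicates 62 to 67. In 4 of 5 treated hearts it was below every vehicle heart, and replicate 68 overlapped (log2 fold change -0.19 ± 0.072, adjusted p = 0.246, edgeR). Rpl3 was 0.07 ± 0.09 higher, and the share of Rpl3l in the pair was 50.3% ± 3.70 (45.6% to 54.1%). Neither difference passed the adjusted threshold.

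**Figure D3:**
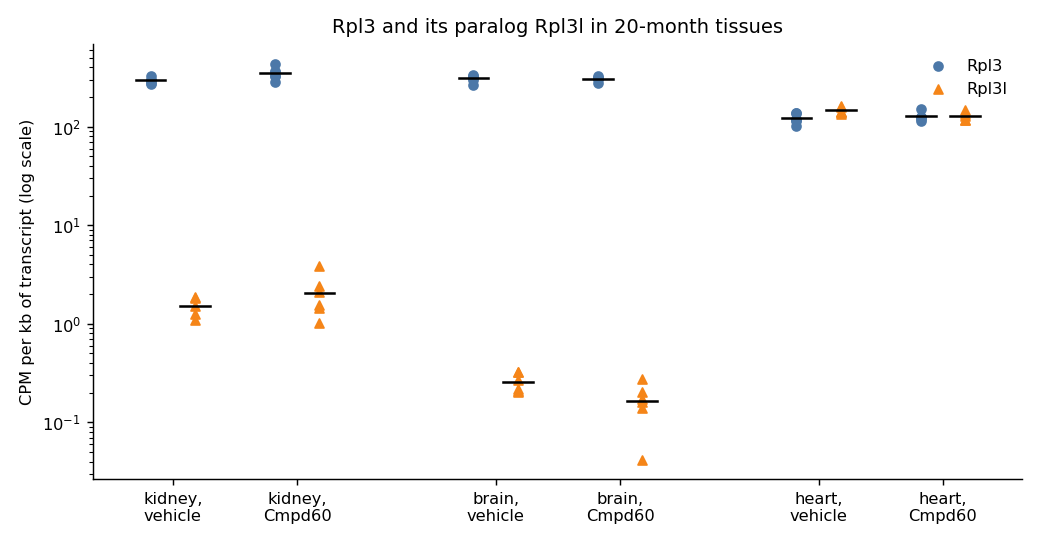
Points give Rpl3 (circles) and Rpl3l (triangles) in CPM per kb of transcript, on a log axis, in each library of the 20-month tissues by treatment, with black lines at the group means. The pair lies at similar heights in heart, while Rpl3l lies far below Rpl3 in kidney and brain.

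The difference in direction between the aged tissues was tested gene by gene in a joint fit of the 34 libraries, which treated them as separate mice although tissues share animals. The Cmpd60 effect in kidney minus that in brain had a median of 0.29 over 85 members (-0.04 over all genes), with 79 positive and 6 negative. Of these, 17 passed p below 0.05 upward, against 3.81% of all genes, and 1 passed p below 0.01, against 0.978%: Rpl5, with a difference of 0.40 ± 0.12 (adjusted p = 0.224). Kidney minus heart had a median of 0.17 (0.00 over all genes) with 70 positive and 15 negative. Upward, 9 passed p below 0.05 (background 5.14%) and 2 passed p below 0.01 (1.59%), Rps4x at 0.36 ± 0.13 and Rps3a1 at 0.37 ± 0.14 (adjusted p = 0.245 and 0.249). Brain minus heart had a median of -0.10, and no member passed p below 0.05. The adjusted threshold was passed by none in any of the 3, with edgeR, and by at most 0.243% of all genes in either direction. Both kidney differences use the same kidney libraries, and replicate 52 again decided the counts at p below 0.01, which were 23 for kidney minus brain and 11 for kidney minus heart without it. Without any other library they ran from 1 to 6 (6 without brain vehicle replicate 29) and from 0 to 4.

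**Figure D4:**
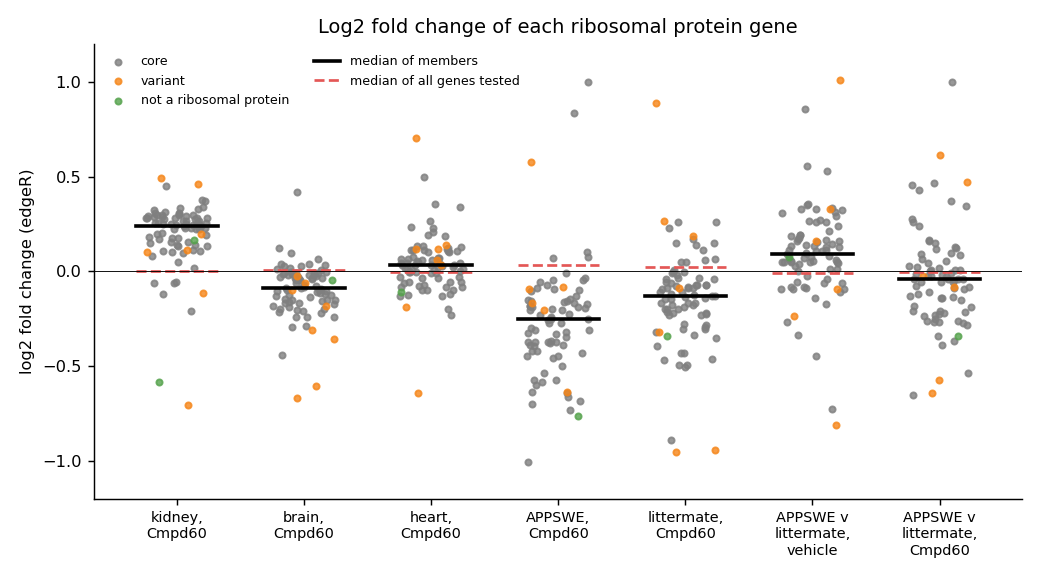
Each point is the log2 fold change (edgeR) of a member in each comparison, coloured as core, variant or not a ribosomal protein; black lines are the members' medians and dashed red lines the medians of all genes tested. The axis ends at 1.2 in either direction and leaves out 5 points. The black line is at 0.24 in kidney and at -0.25 in APPSWE brain.

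In the brain of APPSWE mice, ribosomal protein mRNAs were lower with Cmpd60 than with vehicle, by a median of -0.25 on the log2 scale. Of 83 members, 75 were lower and 8 higher, beside a median of 0.03 for all 23194 genes, of which 45.8% were lower. At p below 0.05, 29 members were lower and none higher, against 2.41% and 7.06% of all genes. At p below 0.01, 10 were lower, against 0.461%. With edgeR no member passed the adjusted threshold, nor did any gene at all. DESeq2 gave 11 members at p below 0.01 and 1 past the adjusted threshold, and limma-voom 19 and none. Small subunit genes had a median of -0.30 (31 genes, 7 at p below 0.01) and large subunit genes -0.24 (44 genes, 3 at p below 0.01).

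The core sum was 8738 CPM in Cmpd60 replicate s141, 6773 in s143, 7597 in s147 and 6807 in s148, against 9415 in vehicle replicate s140, 7919 in s142, 8491 in s144, 8806 in s145 and 9627 in s146. The treated libraries s143, s147 and s148 were thus below all vehicle libraries and replicate s141 was within them. The means were 7479 ± 922 (SD, n = 4) and 8852 ± 693 CPM (n = 5), a ratio of 0.845, or 0.798 without replicate s141. Against their own means over the 19 libraries, 50, 9, 26 and 12 of 83 members were higher in the treated libraries s141, s143, s147 and s148, and 60, 41, 54, 68 and 72 in the vehicle libraries s140, s142, s144, s145 and s146.

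Rpl23a, a large subunit protein at the mouth of the peptide exit tunnel, had the smallest p of the members. Rpl23a was at 84.9, 67.4, 75.1 and 56.1 CPM in the treated libraries s141, s143, s147 and s148, and at 119, 88.8, 122, 120 and 126 CPM in the vehicle libraries s140, s142, s144, s145 and s146. The groups did not overlap, and the log2 fold change was -0.70 ± 0.14 (SE, adjusted p = 0.254, edgeR). DESeq2 gave Rpl23a an adjusted p of 0.00834, edgeR with no filter on low counts 0.0198, and limma-voom 0.128. Its unadjusted p was below 0.01 in all 20 alternatives.

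Rpl11, the partner of Rpl5 in binding MDM2, was at 114, 88.4, 101 and 84.8 CPM in the treated libraries and at 202, 108, 150, 124 and 150 CPM in the vehicle libraries, with replicate s141 above the lowest vehicle library (-0.60 ± 0.17, adjusted p = 0.444, edgeR). Rps15, a small subunit protein, was at 162, 132, 140 and 124 CPM against 241, 151.4, 168, 196 and 252 CPM, with the same library overlapping (-0.53 ± 0.17, adjusted p = 0.444). Rps25, a small subunit protein used in translation from internal ribosome entry sites, was at 110, 70.6, 75.5 and 55.7 CPM against 152, 99.2, 82.0, 86.6 and 131 CPM (-0.50 ± 0.18, adjusted p = 0.444), and here too replicate s141 was the treated library that overlapped. Rps25 was past p below 0.01 in 8 of 20 alternatives and Rps15 in 15, while Rpl11 was past it in all 20.

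Rpl9, Rps7, Rps6, Rps14 and Rps9 were also at p below 0.01. Their log2 fold changes ran from -0.42 (Rps14) to -0.31 (Rps6 and Rps7), each with an adjusted p of 0.444. Rps6 was at 187, 183, 194 and 165 CPM in the treated libraries and at 200, 203, 242, 245 and 239 CPM in the vehicle libraries, without overlap. Rpl9 was at 134, 121, 125 and 109 CPM against 153, 148, 165, 160 and 165 CPM, and Rps7 at 78.7, 104, 97.5 and 92.0 against 109, 110, 125, 111 and 122 CPM, both also without overlap. In all, 10 members had every treated library below every vehicle library, against 0.815% of all genes: Rpl7a, Rpl9, Rpl22l1, Rpl23a, Rpl31, Rps6, Rps7, Rps9, Rps10 and Rps19bp1. No member was apart in the other direction, as 1.49% of all genes were. Of the 10 members at p below 0.01, 7 were in the promoter table. All 7 had a pyrimidine tract, as printed above, but so did 43 of the 56 core members in that table (76.8%).

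**Figure D5:**
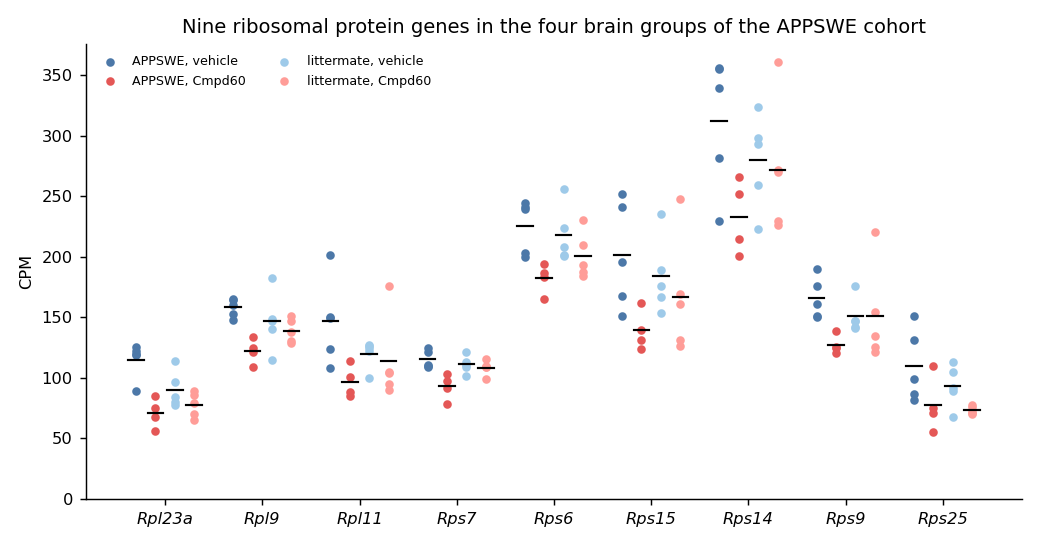
CPM of 9 of the 10 members at p below 0.01 in APPSWE brain, ordered by p, with a point for each library of the 4 cohort groups and black lines at the means. Rpl23a has all 4 APPSWE Cmpd60 libraries below the 5 APPSWE vehicle libraries, and the littermate groups lie between or beside them.

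The P-stalk and the variants in APPSWE brain did not all share the size of the difference. Rplp2 was at 48.2 ± 14.3 CPM with Cmpd60 and 75.2 ± 16.5 with vehicle (-0.64 ± 0.25, adjusted p = 0.444), whereas Rplp0 was at 158 ± 10.5 and 169 ± 17.6 CPM (-0.10 ± 0.11) and Rplp1 at 194 ± 63.7 and 231 ± 23.99 CPM (-0.25 ± 0.17). Rpl22l1 was at 19.2, 17.5, 21.9 and 16.7 CPM in the treated libraries and at 30.9, 30.0, 26.2, 29.9 and 29.7 CPM in the vehicle libraries, without overlap (-0.64 ± 0.27, adjusted p = 0.464), while its parent Rpl22 differed by -0.10 ± 0.15. Rpl22l1 made up 21.3% ± 1.51 of the pair per length with Cmpd60 (19.8% to 23.2%) and 28.6% ± 3.44 with vehicle (23.9% to 32.9%). Rps27rt, low with Cmpd60 in the aged brain, was at 14.8 ± 3.16 and 15.7 ± 6.36 CPM here.

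Library s141 had the highest core sum of the treated group, and leaving it out brought the members at p below 0.01 to 26 and the median to -0.40. Leaving out treated replicate s148 or s143, or vehicle replicate s146, gave 5, 6 and 6, and leaving out vehicle replicate s142 gave 16. The members at p below 0.05 ran from 15 without replicate s143 to 44 without replicate s141. With library s139 counted as vehicle there were 10 members at p below 0.01 with a median of -0.23, and with it counted as Cmpd60 there were 8 with a median of -0.21; in both cases 8 were among the main 10. Counts of detected genes tended to be lower where the core sum was higher. The 5 cohort libraries with the fewest genes were s155, s152, s140, s141 and s146 (15044 to 16577 genes), and APPSWE vehicle libraries had a median of 18518 genes against 22605 with Cmpd60. When the count of detected genes entered the fit as a covariate, 8 members were at p below 0.01, 6 of them among the main 10, and the median was -0.19 beside -0.05 for all genes. Choroid plexus markers summed to 341 to 549 CPM with Cmpd60 and to 381 to 1527 CPM with vehicle in APPSWE mice, with all 5 markers lower and 1 at p below 0.01, and their part was not tested.

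In littermates without the transgene, the same treatment gave a smaller difference of the same sign. Of 83 members, 67 were lower and 16 higher, with a median of -0.13 beside 0.02 for all genes. At p below 0.05, 6 were lower (1.23% of all genes) and 1 was higher (2.44%). None passed p below 0.01, against 0.125% of all genes lower and 0.259% higher. At the adjusted threshold edgeR gave no gene at all, and DESeq2 and limma-voom gave no member. The core sum was 7773 ± 845 CPM with Cmpd60 (6739 to 8873) and 8373 ± 605 with vehicle (7863 to 9245), a ratio of 0.928, and the groups overlapped. As in APPSWE mice, the median count of detected genes was higher with Cmpd60 (23014) than with vehicle (19669), and these counts also overlapped. Rplp1 had the smallest p, at 183 ± 34.4 against 247 ± 55.7 CPM (-0.43 ± 0.16, adjusted p = 0.999, edgeR). Rpl23a was at 86.0, 65.1, 79.2, 70.1 and 89.2 CPM with Cmpd60 in replicates s152, s153, s156, s157 and s158 and at 77.6, 114, 83.9, 79.8 and 96.5 CPM with vehicle in replicates s149, s150, s151, s154 and s155 (-0.21 ± 0.13, adjusted p = 0.999). Without vehicle replicate s149, 3 members were at p below 0.01, without treated replicate s152 there were 2, and without treated replicate s157 there was 1. The number lower at p below 0.05 was 11 without replicate s149 and 15 without s152, but 2 without s150, s153 or s154 and 3 without s156.

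Whether Cmpd60 acted differently in APPSWE mice and littermates was tested as an interaction. The difference had a median of -0.15 over 83 members (0.01 over all genes), with 59 negative and 24 positive. At p below 0.05, 7 were negative, against 1.57% of all genes, and 1 passed p below 0.01, against 0.25%. This was Rps15a, with a difference of -0.53 ± 0.18 (adjusted p = 0.944, edgeR). Rps15a was at 79.9, 104, 106 and 110 CPM in APPSWE Cmpd60 and 138, 102, 102, 120 and 140 CPM in APPSWE vehicle, but higher with Cmpd60 in littermates (115 ± 9.42 against 96.4 ± 16.1 CPM). Without single libraries the count at p below 0.01 ran from 0 (without s140, s146, s152 or s155) to 3 (without s142, s153 or s154). For Rpl23a the interaction was -0.49 ± 0.19 (adjusted p = 0.944). No member passed the adjusted threshold, nor did any other gene.

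Between genotypes, which share these groups, vehicle-treated APPSWE brain had 61 members higher and 22 lower than littermate vehicle, with a median of 0.09 (-0.01 over all genes). At p below 0.05, 5 were higher, against 2.57%, and none lower, against 6.11%, and at p below 0.01 there was Rps3a1, against 0.332%. Rps3a1 was at 339 ± 35.0 CPM in APPSWE and 273 ± 40.7 CPM in littermates, with 4 of 5 APPSWE libraries above every littermate library (0.31 ± 0.11, adjusted p = 0.509, edgeR). Leaving out single libraries gave from 0 to 3 members at p below 0.01, with 3 without APPSWE replicate s142, 2 without littermate replicate s151 and 0 without APPSWE replicate s140, s145 or s146 or littermate replicate s149, s154 or s155. Rpl23a was at 115 ± 14.9 against 90.3 ± 15.005 CPM (0.35 ± 0.13, adjusted p = 0.509). Under Cmpd60, 32 members were higher and 51 lower in APPSWE, with a median of -0.04, and 2 were lower at p below 0.05, Rpl22l1 and Rps7, against 0.862% of all genes. With edgeR no member passed the adjusted threshold in either, against 0.00862% of all genes higher under vehicle and no gene under Cmpd60.

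Among vehicle-treated aged mice, most members were lower in brain than in kidney or heart, while heart and kidney showed no common direction. Brain was below kidney for 54 of 85 members at an adjusted p below 0.05 and above it for 3, against 32.8% and 39.8% of all genes, with a median of -0.60 beside 0.24 for all genes. Heart was above brain for 59 and below it for 8, against 28.9% and 43.2%, with a median of 0.65 beside -0.44. Heart against kidney gave 15 higher and 9 lower, against 25.6% and 31.1%, with a median of -0.01 beside -0.02. These counts rest on the TMM scaling between tissues. Scaling by library size alone moved the median of all genes by over 0.1 in each comparison, to -0.42 for heart against kidney, where 2 members were then higher and 37 lower. Heart against brain then gave 23 higher and 15 lower, with a members' median of 0.05 beside -1.03 for all genes. Brain stayed below kidney for 47 members and above it for 6.

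Rplp0 was far lower in brain than in the other tissues, at 667 ± 52.3 CPM in heart, 577 ± 14.8 in kidney and 150 ± 15.1 in brain (heart over brain 2.16, adjusted p = 5.34e-23, and heart over kidney 0.21, adjusted p = 0.0306). The heart over kidney value is smaller than the shift in the median of all genes between the 2 scalings. Rps13 and Rps2, both of the small subunit, were higher in heart than in brain by 1.80 and 1.64 on the log2 scale. Against the family, Rpl22l1 was higher in brain, at 37.0 ± 3.34 CPM, than in kidney (22.1 ± 4.19) or heart (17.9 ± 4.31), and kidney and heart did not differ beyond their spread (adjusted p = 0.191). Its parent Rpl22 was in the reverse order, at 64.8 ± 3.87 CPM in brain, 103 ± 12.6 in kidney and 127 ± 8.46 in heart. Rpl22l1 thus made up 35.6% ± 1.59 of the pair per length in brain, 17.1% ± 1.02 in kidney and 11.9% ± 1.95 in heart. Rps27l, the paralog of Rps27 and a known p53 target, was at 60.4 ± 18.1 CPM in kidney, 25.7 ± 4.06 in heart and 5.06 ± 0.629 in brain, with every neighbour in that order apart (heart under kidney by a log2 fold change of -1.23, adjusted p = 9.57e-07). Rpl24 was also highest in brain, at 58.0 ± 2.79 CPM against 24.7 ± 1.84 in kidney and 23.0 ± 2.38 in heart. Per kb of transcript, the most abundant members were Rps14 in kidney at 577 CPM per kb, Rplp1 in brain at 487 and Rps2 in heart at 689.

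Members also differed in how steady they were. Short mRNAs varied more between libraries than long ones. Core members at or under 751 bases had a median SD of 0.44 over all libraries, both groups together, on the log2(CPM + 0.5) scale in kidney and 0.35 in the cohort, against 0.26 and 0.23 for longer ones, and the same order held in heart (0.24 and 0.14) and in the aged brain (0.18 and 0.16). Rps29, a small subunit gene with a short mRNA, ran from 6.42 to 62.7 CPM in treated kidneys and from 10.4 to 67.3 CPM in vehicle kidneys. In the cohort Rps29 was at 72.6 CPM in replicate s140, 59.4 in s152, 48.8 in s141, 37.0 in s155 and 35.8 in s146, which are the 5 libraries with the fewest genes detected and come from all 4 groups, and from 6.16 to 22.7 CPM in the other 14. Rpl24 was the steadiest in kidney, with an SD of 0.15, but it did not follow the family. In kidney and in the aged brain, its level tended to be lower where the other members were higher.

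A few core members were nearly missing from some cohort brains and not from others. Rpl26, a large subunit gene, was at 0.625 to 3.45 CPM in 7 of the 19 libraries and at 67.9 to 175 CPM in the other 12. The 7 were s142, s144 and s145 of APPSWE vehicle, s151 of littermate vehicle, and s152, s153 and s158 of littermate Cmpd60, so no APPSWE Cmpd60 library was among them. Rps2 was at 1.05 to 11.1 CPM in s142, s144, s151, s153 and s155 and at 104 to 269 CPM in the other 14 libraries. Rps18 was at 6.60 to 10.6 CPM in s145, s151, s153 and s155 and at 39.5 to 134 CPM in the other 15. Low libraries of the 3 genes thus overlapped only in part. In APPSWE brain Rps2 was therefore at 175 ± 53.4 CPM with Cmpd60 and 87.2 ± 75.2 with vehicle (adjusted p = 0.871, edgeR), a higher mean against the family that did not pass the test. No core member had an SD above 0.64 over the 12 aged brains, whereas Rpl26 had 2.92 and Rps2 had 2.28 in the cohort. What sets these libraries apart was not tested.

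Other genes, many of them of the translation machinery, were read beside the family, and none passed the adjusted threshold. A list of 20 other genes with TOP mRNA held mainly translation factors, but also genes with other roles such as Vim, Npm1, Hnrnpa1 and Nap1l1. Of these 20, 18 were higher with Cmpd60 in kidney (median 0.15) and 19 were lower in APPSWE brain (median -0.10). In APPSWE brain the elongation factor subunits Eef1b2 and Eef1g and the TOP mRNA Tpt1 were lower at p below 0.01, against 0.461% of all genes. Eef1b2 was also lower at p below 0.01 in littermates, against 0.125% of all genes. In aged brain 16 of the 20 were lower and in heart 15. At p below 0.01, Nap1l1 was higher in aged brain, against 2.26% of all genes, and Eef1d and Naca were lower in heart, against 2.25%. Of 37 ribosome biogenesis genes, 33 were higher in kidney (median 0.16), and 28 were lower in aged brain, 28 in heart and 24 in APPSWE brain. At p below 0.01, Polr1c, a subunit of RNA polymerases I and III, was lower in aged brain, against 2.03% of all genes. Pes1 and Wdr12, partners in large subunit assembly, were lower in heart, against 2.25%. Ncl, the nucleolar protein nucleolin, was lower in APPSWE brain, against 0.461%. Mitochondrial ribosomal proteins, encoded in the nucleus for a separate ribosome, were higher in kidney for 58 of 76 genes (median 0.08). There, Mrps18b was higher and Mrps28 lower at p below 0.01, against 1.81% and 1.97% of all genes. In aged brain 67 of these genes were lower (median -0.07), including Mrpl48, Mrpl54 and Mrps28 at p below 0.01, against 2.03%. They were lower in heart for 50, with Mrps9, Mrpl58 and Mrps28 at p below 0.01 (against 2.25%), and in APPSWE brain for 53 (median -0.11). Of 17 genes of the mTORC1 and S6 kinase pathway, 6 were higher in kidney and 11 in APPSWE brain, with medians of -0.06 and 0.04. The 8 p53 and nucleolar stress genes were all higher in kidney (median 0.17), and 7 of 8 were higher in heart (median 0.11). In aged brain and in littermates 5 of 8 were higher, and in APPSWE brain 4 of 8. Fau and Rack1, ribosome parts outside the symbol rule, were both higher in kidney and lower in aged brain. Only 2 of 6 listed snoRNA host genes could be tested, both higher in kidney.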

How the data were processed

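The authors prepared oligo-dT, strand-specific libraries (NEBNext Ultra II Directional), trimmed reads with Trimmomatic 0.32, aligned them with HISAT2 2.1.0 and counted them per Ensembl gene with HTSeq 0.11.0; the genome build is not given in the sources used here. The deposited files hold raw read counts of 54232 genes in 54 libraries. Their 5 summary lines, 15.4% to 22.1% of each file's total, were left out. Tests used edgeR 4.0.16 (quasi-likelihood F-test, R 4.3.3, TMM scaling), kept a gene if 3 or more fitted libraries had counts above 2, and applied Benjamini-Hochberg adjustment over all genes. Each aged tissue was fitted alone, the cohort in a single fit of 19 libraries, and, for tissue differences, all 34 aged libraries in a joint fit that treated them as separate mice. The script was tested on simulated data. DESeq2 1.42.0 and limma-voom (limma 3.58.1), other scalings and filters, and leaving out each library were alternatives. CPM uses TMM library sizes. Nothing but the labels separates replicates, so p-values measure the spread between libraries. The floor of 3 counts was at most 0.127 CPM and, like every depth statement, covers counting error only. Members and gene lists were chosen with earlier results of these data known. Named by rule were up to 4 members per direction with the largest log2 fold change among those at p below 0.01 (none passed the adjusted threshold) and a mean of at least 1 CPM, the variants and their parents, the P-stalk genes, Rpsa, Rps6 and the 5 most abundant members per tissue; other members were named after their values were seen. Some genes that entered the counts are not reported here by name. Transcript lengths are of the longest coding transcript in GENCODE vM1, and promoters are from RefSeq.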

Additional observations from a re-analysis of the deposited data

Results flagged for a closer look

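Of 24 groups checked for a library far from the rest, 1 was flagged by its gap, and chance alone flags about 1 group in 20. It was Rpl23a in APPSWE vehicle brain, where replicate s142 was at 88.8 CPM and the other 4 vehicle libraries were at 119 to 126 CPM. Without replicate s142, the difference of Rpl23a between Cmpd60 and vehicle in APPSWE brain was -0.78 on the log2 scale in place of -0.70 (adjusted p = 0.0825 against 0.254, edgeR, with a range of 0.00834 to 0.674 over its 20 alternatives).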

How the results depend on the processing

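No paired analysis was possible because the groups compared share no replicate numbers in the labels. Of 247 medians of the members under an alternative, 4 changed sign, and 35 kept their sign but differed from the main value by over 1.5 times. Of 296 counts past the adjusted threshold, 4 differed by over 1.5 times, and so did 98 of 247 counts at p below 0.01. These counts of members were not set beside the share of all genes under the same alternative. The named genes stayed past p below 0.01 in 90 values and did not in 49. The median of the members in heart became -0.040 without treated replicate 68 (26 higher, 58 lower) and -0.0074 without treated replicate 72, and that of the Cmpd60 genotype comparison became 0.0018 without APPSWE Cmpd60 replicate s148 and 0.0089 without littermate Cmpd60 replicate s152. In APPSWE brain, 1 member (Rpl23a) passed the adjusted threshold with DESeq2 and 1 with no filter. With library size alone, 39 members were called between vehicle heart and kidney (2 higher, 37 lower) and 38 between heart and brain (23 higher, 15 lower); the cause was not tested. Over the libraries left out in turn, the median ran from 0.07 to 0.34 in kidney, from -0.14 to -0.04 in aged brain, from -0.040 to 0.079 in heart, from -0.40 to -0.18 in APPSWE brain, from -0.19 to -0.08 in littermates and from -0.17 to 0.0089 in the Cmpd60 genotype comparison; for the differences it ran from 0.13 to 0.39 (kidney minus brain), 0.03 to 0.29 (kidney minus heart), -0.14 to -0.03 (brain minus heart) and -0.23 to -0.05 (interaction). Those for the differences and between vehicle tissues were chosen after seeing the data. In APPSWE brain, members relative to all genes were at -0.28 with edgeR, -0.47 with limma-voom and -0.14 with genes detected as a covariate. Depth does not limit the core members, except that Rpl13a, like the low variants, rests on few reads.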

Other observations

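The vehicle brains of the aged mice and of the younger littermates came from separate cohorts of mice, called sets here. Age therefore cannot be told apart from any other difference between the sets. Scaled by library size alone, several ribosomal protein mRNAs had a far higher mean in the aged set. Among short ones, Rpl30 was at 80.4 ± 16.3 against 24.5 ± 7.76 CPM (SD, 3.28-fold) and Rpl34 at 56.3 ± 5.84 against 17.99 ± 14.1. Rpl35a was at 62.1 ± 5.21 against 21.0 ± 10.6 and Rps29 at 54.6 ± 14.2 against 20.1 ± 10.8 CPM. Longer mRNAs went both ways. Rps2 (962 bases) was at 254 ± 25.1 against 111 ± 113 CPM (2.28-fold), with littermate libraries from 1.04 to 274 CPM. Rpl4 (1422 bases) was at 413 against 427 CPM and Rplp0 (1358 bases) at 180 against 184 CPM. The largest ratio, 3.33-fold, was that of Rpl13a, at 3.36 against 1.01 CPM. Rpl6 was lowest in the ratio, at 224 against 274 CPM (0.82-fold), and Rpl23a was at 91.1 against 90.9 CPM. The differences between sets were not tested.

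Library s139, left out of the cohort groups, had a core sum of 8450 CPM, scaled by library size, and Rpl23a at 95.2 CPM.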
